A study of Macaca mulatta with 8 samples.

Results

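The NFAT factors and calcineurin genes were examined in RNA sequencing of primary microglia, the resident macrophages of the brain, from adult rhesus macaques. The 10 genes were named by symbol as parts of this pathway, with earlier results of these data known. They are the transcription factors NFATC1, NFATC2, NFATC3 and NFAT5, the calcineurin subunits PPP3CA, PPP3CB, PPP3CC and PPP3R1, and the calcineurin inhibitors RCAN1 and CABIN1. Of these, 9 were found among the 35432 genes of the count files. PPP3R1, the regulatory subunit, had no row under that symbol and was not analysed here. NFATC2 was too low to pass the filter on low counts, so that 8 members were tested.

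The microglia came from subcortical white matter and were kept for 8 days in serum and the growth factor M-CSF. At day 7, all cultures were exposed to 10 µg/mL uLPS, an ultrapure lipopolysaccharide that activates Toll-like receptor 4, and RNA was taken after 16 h. In 4 libraries (uLPS+MRS2578) the cells were also pre-incubated for 1 h with 5 µM MRS2578, an antagonist of the nucleotide receptor P2RY6, and in the 4 others (uLPS) they were not. Each of 4 animals, R07110, R12016, R02046 and R14143, gave 1 library per condition, which made the comparison a within-donor one. Unstimulated cells were not among the libraries, so the effect of uLPS itself on these genes was not measured.

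In resting cells NFAT factors are held in the cytoplasm in phosphorylated form. When a receptor such as P2RY6 couples to phospholipase C, calcium leaves its stores, calmodulin binds calcium, and the phosphatase calcineurin removes phosphates from NFATC1, NFATC2 and NFATC3, which then enter the nucleus. NFAT5 lacks the calcineurin docking region and is best known for the response to osmotic stress. Much of the regulation in this pathway acts on protein and location, which transcript counts do not measure. The comparison with MRS2578 asks whether the transcripts of the pathway itself differed when P2RY6 was blocked.

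The conditions of R02046 were uncertain. In a supplementary table of CPM (counts scaled to library size) of the study, 6 of 8 columns were proportional to the library with the same label, and the R02046 columns were proportional to the libraries with the opposite labels. The effect of MRS2578 in the members is therefore given with the conditions as labelled, with the R02046 libraries exchanged, and without R02046. Total counts ran from 9231109 to 32790348 per library, and the smallest library was the R02046 library labelled uLPS. A count of 0 allows up to 3 counts, which is 0.0915 to 0.325 CPM depending on the library, for counting error only. Microglial markers were abundant, with 11 of 12 in the files and a summed level of 3991 to 4733 CPM with uLPS and 3642 to 4643 CPM with MRS2578. CSF1R, CD68, ITGAM, SPI1 and C1QB carried most of this sum, P2RY12 was at 5.70 to 13.3 CPM, and CX3CR1 and TMEM119 were at or near 0 in nearly all libraries. The 9 T and B lymphocyte markers summed to 351 to 632 CPM with uLPS and 309 to 648 CPM with MRS2578, nearly all of it CD4, which macrophages also express, at 303 to 614 CPM, and CD8A at 5.69 to 50.7 CPM. The defining markers CD3D, CD3E, CD3G and LCK did not exceed 0.112 CPM. Astrocyte markers summed to 26.0 to 105 CPM with uLPS and 45.1 to 106 CPM with MRS2578, with GFAP at 7.39 to 89.0 CPM, and oligodendrocyte markers to 61.3 to 71.7 CPM and 65.0 to 76.1 CPM, nearly all of it MBP. The part of these cell types in the results below was not tested. P2RY6 transcripts were present in all libraries, at 49.5 to 110 CPM. In such bulk samples, fewer cells of a type and less RNA per cell cannot be told apart.

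RCAN1 is shown by sequence because it is both an inhibitor of calcineurin and a known target of NFAT, and because it was the most abundant member. The gene lies on the plus strand of chromosome 3 (Mmul_10, chr3:11954956-12053394), and its transcripts start at several places in the NCBI annotation. The window from 250 bases before to 30 bases after the first annotated start held no copy of TGGAAA, an NFAT-type core, or of its reverse complement TTTCCA. It lies at chr3:11954706-11954985, plus strand:

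RCAN1 first start: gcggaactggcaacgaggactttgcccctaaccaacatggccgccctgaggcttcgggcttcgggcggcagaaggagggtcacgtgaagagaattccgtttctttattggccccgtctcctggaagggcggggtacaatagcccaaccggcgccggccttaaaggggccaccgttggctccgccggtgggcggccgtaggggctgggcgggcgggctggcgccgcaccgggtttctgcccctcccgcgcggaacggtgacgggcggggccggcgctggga

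A window of the same length at an inner start, base 12042189, held no copy. The window at a further inner start, base 12042967, lies within annotated RCAN1 exons over all its 280 bases. It held 2 copies, 1 on each strand. They begin 192 and 13 bases before that start, at chr3:12042765-12042790 and chr3:12042944-12042969 with 10 bases on either side. Capitals mark the 6 bases searched:

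RCAN1 inner start, distal match: acgtcacctcTTTCCAgtagaaactt

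RCAN1 inner start, proximal match: tacagcctctTGGAAAggaatctcac

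Among 20787 protein-coding genes, each with 1 window at its first annotated start, 18.7% held at least 1 copy and 2.39% held 2 or more. The 23 start windows of the 9 members in the files include inner starts, some of them overlapping. Of these, 2 held a copy, that of RCAN1 at base 12042967 and 1 of CABIN1. The percentages cover first starts only, and at these no member in the files held a copy. These are matches of letters only. The counts are per gene and do not say which start was used.

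The levels of the members spanned a wide range. Levels of different genes were compared as CPM per kb of merged exon, in the libraries with uLPS. RCAN1 was highest, at 48.2 ± 17.3 CPM per kb (SD, n = 4), above 87.9% of the tested genes that had a length. The calcineurin catalytic subunits followed, with PPP3CB at 22.1 ± 1.96, PPP3CA at 16.6 ± 1.38 and PPP3CC at 8.26 ± 1.20 CPM per kb. CABIN1 was at 5.87 ± 0.83 CPM per kb. The NFAT factors came last, with NFATC3 at 4.03 ± 0.65, NFATC1 at 2.67 ± 0.18, NFAT5 at 1.97 ± 0.95 and NFATC2 at 0.0411 ± 0.0248 CPM per kb. NFATC1 and NFAT5 were the only neighbours in this order whose ranges overlapped, with NFATC1 the higher in 3 of 4 donors. With MRS2578, PPP3CB was above PPP3CA in 3 of 4 donors and CABIN1 above NFATC3 in 3 of 4.

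**Figure D1:**
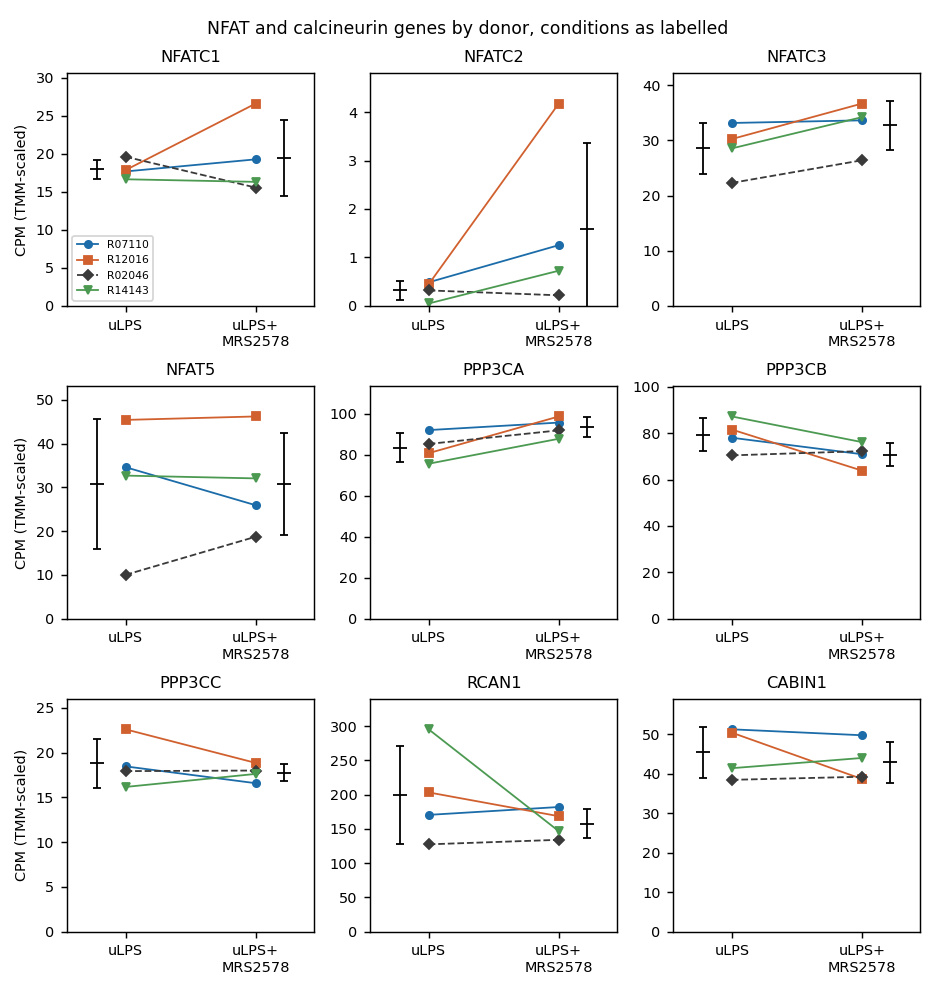
Level of each member (vertical axis, TMM-scaled CPM, a linear axis from 0 for each gene) with uLPS and with uLPS+MRS2578, conditions as labelled. Lines join the 2 libraries of a donor (dashed for R02046), and the bars beside them are the mean ± SD of 4 libraries, the lower bar of NFATC2 with MRS2578 being cut at 0. The groups overlap for every member, and RCAN1 in R14143 drops from 295 to 147 CPM.

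No member passed the test for an effect of MRS2578. With the conditions as labelled, edgeR's quasi-likelihood test with donor as a block called 0 of 12131 genes at an adjusted p of 0.05 (0%), and 0 of the 8 tested members. At an unadjusted p under 0.05 it found 624 genes (5.14%) and again 0 members. With R02046 exchanged, 75 genes passed (0.618%) and 0 members. Without R02046, 0 of 12295 genes passed (0%), 1670 (13.6%) had an unadjusted p under 0.05, and 1 member among these, NFATC2, entered that fit only through its libraries with MRS2578, as described below. DESeq2 called 1 gene and edgeR's likelihood ratio test 5, again without a member. The exchange with the likelihood ratio test called 616 genes (5.08%) and 0 members. The CPM of the groups overlapped for all 8 tested members, and were apart for 1.08% of all tested genes. For 2 of the 8 the difference had the same direction in all 4 donors, against 12.9% of all tested genes, and for 3 of the 8 in the 3 donors without R02046, against 36.8%.

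**Figure D2:**
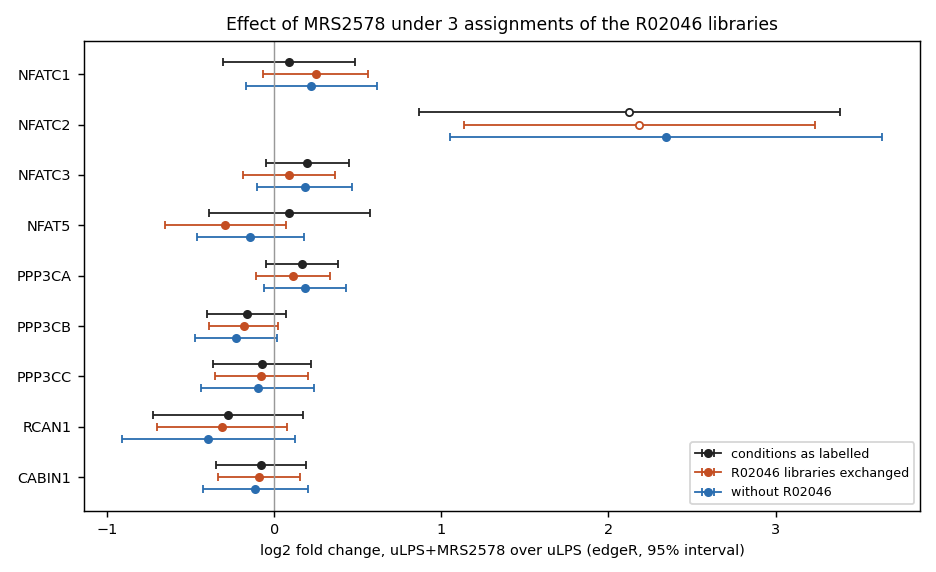
Log2 fold change of each member with MRS2578 (horizontal axis, points) and its 95% interval (bars) from edgeR, with the conditions as labelled (black), the R02046 libraries exchanged (orange) and without R02046 (blue). Open points are fits without the filter on low counts, which NFATC2 needed as labelled and with the exchange. The intervals of the 8 tested members include 0 under all 3 assignments. Those of NFATC2 lie above 0, but the gene did not pass adjustment over all genes. Without R02046 it passed the filter only through its libraries with MRS2578, in which it was high, so that interval is a description.

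NFATC1 (ENSMMUG00000022596), the NFAT factor that drives osteoclast formation, was at 17.7, 17.9, 19.6 and 16.7 CPM with uLPS in R07110, R12016, R02046 and R14143, and at 19.3, 26.6, 15.6 and 16.3 CPM with MRS2578. The R12016 library with MRS2578 stood above the other 7, which lay close together. The log2 fold change was 0.09 (SE 0.17, 95% interval -0.30 to 0.48, edgeR quasi-likelihood adjusted p = 0.95). It was 0.25 with R02046 exchanged (adjusted p = 0.411) and 0.22 without R02046 (adjusted p = 0.603). Without R12016 it was -0.06. The gene spans chr18:717878-844949 on the minus strand.

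NFATC2 (ENSMMUG00000012657), a factor best known from T cells, was barely detected with uLPS. Its counts with uLPS were 16, 7, 3 and 1 in R07110, R12016, R02046 and R14143, and 31, 66, 3 and 13 with MRS2578. These are 0.487, 0.447, 0.320 and 0.0508 CPM with uLPS and 1.25, 4.17, 0.219 and 0.727 CPM with MRS2578. In 3 of 4 donors the library with MRS2578 was the higher, and in R02046 both libraries stood at the limit that a count of 0 allows. The ratio of CPM, MRS2578 over uLPS, was 2.57 in R07110 (95% counting interval 1.36 to 5.04), 9.34 in R12016 (4.29 to 24.1), 0.685 in R02046 (0.0918 to 5.12) and 14.3 in R14143 (2.15 to 608). Without the filter, the log2 fold change was 2.12 (SE 0.56) with an unadjusted p of 0.00397 in edgeR's quasi-likelihood test, and the adjusted p was 0.879. With R02046 exchanged it was 2.19 (SE 0.47, adjusted p = 0.0781), and without R02046 2.34 (SE 0.53, adjusted p = 0.181). In this last fit the gene passed the filter only through the libraries with MRS2578, in which it was high, so that the value is given as a description. Without both R02046 and the filter it was 2.32 (SE 0.51, adjusted p = 0.221). The difference therefore did not pass under any assignment, and it rests on 1 to 66 counts per library. NFATC2 lies on the minus strand at chr10:86622609-86799609.

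NFATC3 (ENSMMUG00000021843) was the most abundant NFAT factor per kb in each donor and condition. It was at 33.2, 30.3, 22.3 and 28.6 CPM with uLPS and at 33.6, 36.7, 26.4 and 34.2 CPM with MRS2578, in the same order of donors. MRS2578 was the higher side in 4 of 4 donors, by 0.02 to 0.28 on the log2 scale. The fitted log2 fold change of 0.20 (SE 0.11) did not pass (edgeR adjusted p = 0.878), and it was 0.09 with R02046 exchanged (adjusted p = 0.777) and 0.18 without R02046 (adjusted p = 0.547). Its exons (chr20:55299210-55453563, plus strand) share 40.9% of their bases with ESRP2 on the opposite strand. ESRP2 itself had 1 to 11 counts per library.

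NFAT5 (ENSMMUG00000018255) differed more between donors than any other tested member. It was at 34.6, 45.4, 10.0 and 32.7 CPM with uLPS and at 25.9, 46.2, 18.7 and 32.0 CPM with MRS2578. R12016 was highest and R02046 lowest in both conditions. The log2 fold change with MRS2578 was 0.09 (SE 0.20, edgeR adjusted p = 0.959) as labelled, -0.29 (SE 0.16, adjusted p = 0.405) with R02046 exchanged, and -0.14 (SE 0.13, adjusted p = 0.698) without R02046. The sign of the NFAT5 difference thus depended on which R02046 library was taken as treated. The gene lies on the plus strand at chr20:56823863-56964109.

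The calcineurin catalytic subunits PPP3CA, PPP3CB and PPP3CC are alternative forms of the phosphatase. PPP3CA (ENSMMUG00000004599, chr5:99391542-99720992, minus strand) was at 92.1, 80.9, 85.4 and 75.7 CPM with uLPS and at 95.8, 98.8, 92.0 and 87.9 CPM with MRS2578, higher with MRS2578 in 4 of 4 donors. PPP3CB (ENSMMUG00000015714, chr9:64220099-64280691, plus strand) was at 78.0, 81.6, 70.4 and 87.2 CPM with uLPS and at 70.9, 63.9, 72.3 and 76.2 CPM with MRS2578, lower in 3 of 4 donors and higher in R02046. PPP3CC (ENSMMUG00000014442, chr8:22623718-22725589, plus strand) stayed between 16.2 and 22.6 CPM in all 8 libraries. The differences were small and within error. The log2 fold change of PPP3CA was 0.17 (SE 0.09) and that of PPP3CB -0.16 (SE 0.10), each with an edgeR adjusted p of 0.878, and that of PPP3CC was -0.07 (SE 0.12, adjusted p = 0.945). With R02046 exchanged the 3 values were 0.11, -0.18 and -0.08, and without R02046 they were 0.19, -0.23 and -0.10, with edgeR adjusted p of 0.366 to 0.806 in these fits.

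The share of each form within its family was also compared within donors, on CPM per kb. NFAT5 was counted among the NFAT factors although it lacks the calcineurin docking region. A share also differs when another form of the family does. With uLPS, PPP3CB made up 47.1% ± 3.65, PPP3CA 35.3% ± 3.12 and PPP3CC 17.6% ± 2.13 of the catalytic subunits (SD, n = 4). With MRS2578 the share of PPP3CA was 40.2% ± 2.30 and that of PPP3CB 42.8% ± 2.82. The PPP3CA share was higher by 4.95 percentage points (SD 3.70) and was higher in 4 of 4 donors, and the PPP3CB share differed by -4.31 points (SD 3.38) and was lower in 4 of 4. The exact two-sided permutation test over 4 donors gave p = 0.13 for each, which is the smallest p that 4 donors allow. With R02046 exchanged the PPP3CA difference was 4.29 points in 3 of 4 donors (exact p = 0.25) and that of PPP3CB -3.98 points (exact p = 0.25), and without R02046 they were 6.16 and -5.52 points (exact p = 0.25, the smallest that 3 donors allow). The PPP3CC share differed by -0.64 points as labelled, -0.31 with the exchange and -0.63 without R02046 (exact p = 0.5, 0.75 and 0.75). Which form was the larger depends on the scale. On CPM not divided by length, PPP3CA had the larger share with uLPS, 46.0% against 43.7%.

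Among the NFAT factors with uLPS, NFATC3 made up 46.3% ± 2.35, NFATC1 31.5% ± 7.82, NFAT5 21.7% ± 8.51 and NFATC2 0.470% ± 0.265 (SD, n = 4). This order also depends on the scale. On CPM not divided by length, NFATC3 made up 37.5%, NFAT5 37.4% and NFATC1 24.6% with uLPS. On CPM per kb, the differences with MRS2578 were -1.72 points for NFATC1, 1.33 for NFATC2, 2.14 for NFATC3 and -1.75 for NFAT5, with exact permutation p of 0.875, 0.25, 0.375 and 0.625. The SD of the within-donor differences exceeded their mean for each of the 4 factors as labelled. With R02046 exchanged the NFATC1 difference was 3.98 points, the NFATC3 difference -0.17 and the NFAT5 difference -5.25, with NFAT5 and NFATC2 then at the smallest exact p. Without R02046 the differences were 1.504 points for NFATC1, 1.84 for NFATC2, 1.31 for NFATC3 and -4.66 for NFAT5, the last lower in 3 of 3 donors, with exact permutation p of 0.5, 0.25, 0.75 and 0.25, where 0.25 is the smallest that 3 donors allow. In all, 7 shares were compared, and none could have passed an adjustment over them with 4 donors.

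**Figure D3:**
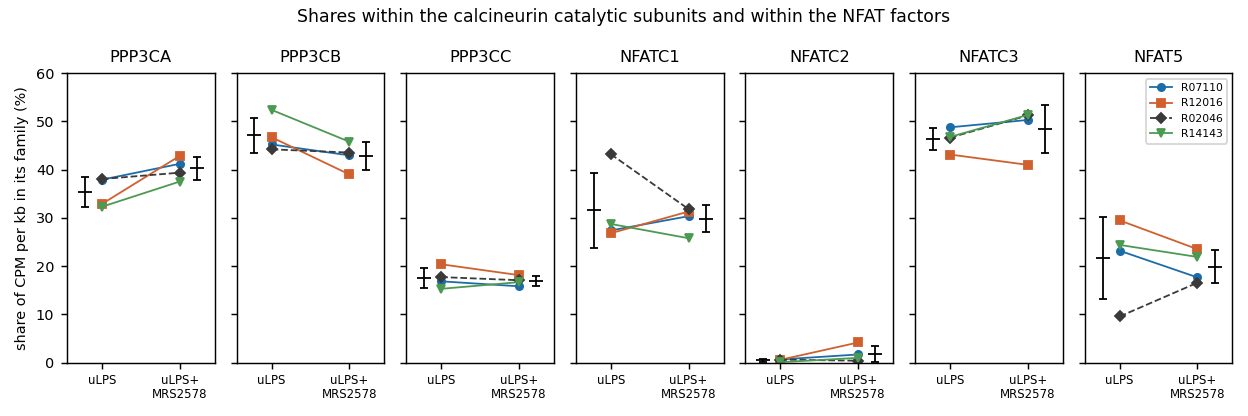
Share of each form in the summed CPM per kb of its family (vertical axis, %) with uLPS and with uLPS+MRS2578, for the 3 calcineurin catalytic subunits and the 4 NFAT factors, conditions as labelled. Lines join the libraries of a donor and bars are the mean ± SD of 4 libraries. The share of PPP3CA is higher and that of PPP3CB lower with MRS2578 in all 4 donors, and NFATC2 stays below 5%.

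RCAN1 (ENSMMUG00000004600) binds calcineurin and restrains it. It was at 170.5, 203, 127.5 and 295 CPM with uLPS and at 182, 169, 134 and 147 CPM with MRS2578, in R07110, R12016, R02046 and R14143. The R14143 library with uLPS stood above the other 7, and the 4 libraries with MRS2578 lay close together. The within-donor log2 differences were 0.09, -0.27, 0.07 and -1.01. The log2 fold change was -0.28 (SE 0.19, 95% interval -0.73 to 0.18, edgeR adjusted p = 0.884), with R02046 exchanged -0.31 (adjusted p = 0.406), and without R02046 -0.39 (adjusted p = 0.485). Without R14143 it was -0.04. In R14143 the fibroblast genes COL1A1 and COL1A2 also moved, from 512 to 178 CPM and from 330 to 122 CPM, and the summed level of the 6 endothelial, mural and fibroblast markers went from 1039 to 479 CPM. The collagen genes made up most of the fall in this sum. PECAM1 went from 127 to 107 CPM, and VWF rose from 64.9 to 69.8 CPM. In the other 3 donors that sum was higher with MRS2578, going from 253 to 320 CPM in R07110, from 304 to 444 CPM in R12016, where RCAN1 was lower, and from 427 to 550 CPM in R02046. Its part in the RCAN1 value was not tested.

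CABIN1 (ENSMMUG00000020992, chr10:28187369-28350766, plus strand) is a nuclear protein that binds and inhibits calcineurin and also represses MEF2 factors. Its level was 51.2, 50.4, 38.4 and 41.4 CPM with uLPS and 49.7, 38.6, 39.2 and 44.0 CPM with MRS2578. R12016 had the largest difference, -0.38 on the log2 scale, and the other 3 donors lay between -0.04 and 0.09. The log2 fold change was -0.08 (SE 0.11, edgeR adjusted p = 0.939), with R02046 exchanged -0.09 (adjusted p = 0.732) and without R02046 -0.11 (adjusted p = 0.764).

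Differences between donors were larger than those between conditions for NFAT5. The donor means of its log2 CPM spanned 1.73, with an SD of 0.73, against a median SD of 0.25 over all tested genes. The median size of its within-donor differences was 0.22. Over all tested genes, the donor span was also the larger, with medians of 0.56 for the span and 0.24 for the within-donor difference. The other 7 tested members had donor SDs from 0.08 for PPP3CA to 0.29 for RCAN1. A test of the donor terms in edgeR called 892 genes (7.35%) and 0 of 8 members, with NFAT5 at an adjusted p of 0.0591. NFAT5 was the 1 member called with R02046 exchanged (adjusted p = 0.0113, with 18.9% of all genes called) and in DESeq2's likelihood ratio test (adjusted p = 0.000193, with 20.3% called). In edgeR its adjusted p was 0.116 without R02046, 0.132 without R12016, 0.0871 without R14143 and 0.0538 without R07110. Both R02046 libraries were low, R12016 was highest, and each of these fits had fewer libraries.

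The genes whose pattern over the 8 libraries was most like that of a member were sought for the 3 members with the largest SD of log2 CPM, among 9085 genes with a symbol and a mean of at least 5 CPM. Likeness was the root-mean-square difference of centred log2 CPM. For NFAT5 the nearest included ZHX2 at 0.155 and RICTOR at 0.199, against an SD of NFAT5 itself of 0.73. For RCAN1 they were TGIF1 at 0.115, BANP at 0.117 and CDKN1B at 0.135, against 0.39. For NFATC2 the nearest, ARMCX4, GPRASP1 and HSPH1, were no closer than 0.685, against an SD of 1.43. These are descriptions over 8 libraries that share donors.

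The genes around calcineurin and NFAT were read from 7 lists with 74 genes in all. With the conditions as labelled, 0 genes of any list passed the test. The first list held NFATC4, NFATC2IP, MEF2A, MEF2C and MEF2D, with HIRA, UBN1 and ASF1A. Of these, 7 were tested, and their median log2 fold change was -0.02, against -0.01 for all tested genes. MEF2C, a calcium-responsive factor, had the largest positive value at 0.22 and UBN1 followed at 0.10, and NFATC2IP was at -0.29 and MEF2D at -0.06. NFATC4, the remaining calcineurin-dependent NFAT factor, had 0 to 12 counts per library and was not tested. Of the other calcineurin regulators, 7 were tested with a median of -0.07. CALM3, a calmodulin gene, was at 0.13 and FKBP8 at 0.05, and AKAP5, which anchors calcineurin at membranes, was at -0.50 (SE 0.52) and RCAN3 at -0.43 (SE 0.18, edgeR adjusted p = 0.878). Without R12016 these were at 0.02 and -0.26, and without R02046 at -1.09 and -0.51.

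The kinases that return NFAT to the cytoplasm, with the HOMER scaffolds that compete with calcineurin for NFAT, gave 10 tested genes with a median of 0.02. DYRK2 was at 0.35, HOMER3 at 0.18, CSNK1D at -0.08 and GSK3B at -0.07. The genes of calcium release and entry gave 12 tested genes with a median of 0.01. Phospholipase PLCB2 was at 0.94 (SE 0.45) and the calcium pump ATP2A3 at 0.78 (SE 0.44), each with an edgeR adjusted p of 0.878. R12016 carried much of both, and without it they were at 0.45 and 0.22. Without R02046 they were at 1.39 and 0.80. The inositol trisphosphate receptors ITPR1 and ITPR3 were at -0.08 and -0.07. The store sensors STIM1 and STIM2 and the channels ORAI1, ORAI2 and ORAI3 all lay between -0.06 and 0.03 as labelled. Within donors, STIM2 differed by -0.22, -0.16, 0.42 and -0.23 in R07110, R12016, R02046 and R14143. ITPR1 differed by -0.61, -0.72, 0.82 and 0.23 in the same order. With R02046 exchanged and without R02046, ITPR1 and STIM2 had the largest falls of this list. None of these genes passed the test.

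The immune genes that NFAT is known to help activate had mostly negative values. The list was chosen with earlier results of these data known. Of 17, all were in the files and 11 were tested, with a median of -0.49. Of the 11, 2 had a positive and 9 a negative log2 fold change, while 47.9% of all tested genes had a positive one. IL12B, the shared subunit of interleukins 12 and 23, was at -1.57 (SE 0.83) and the growth factor CSF2 at -1.32 (SE 0.47), each with an edgeR adjusted p of 0.878, and NR4A1 and PTGS2 had the largest positive values at 0.96 and 0.02. Without R12016, IL12B was at -0.68, CSF2 at -0.76 and NR4A1 at 0.63, and without R07110 NR4A1 was at 0.32. IL2, the classic T cell target of NFAT, had 0 counts in each library. IL2RA, the interleukin 2 receptor alpha chain, was at 135, 230, 79.2 and 235 CPM with uLPS and at 40.9, 51.0, 193 and 109.5 CPM with MRS2578. The library with MRS2578 had less IL2RA in 3 donors and more in R02046. As labelled, its value in edgeR was -1.01 on the log2 scale (SE 0.54, adjusted p = 0.878), against -1.67 (SE 0.21, adjusted p = 0.124) without R02046, and -1.57 (SE 0.17, adjusted p = 0.0271) with R02046 exchanged, where it passed. With the exchange, the list's median was -0.75 with 1 of 11 tested genes called, against 0.618% of all genes. Without R02046 the median was -0.84 with 0 of 10 called, against 0% of all genes.

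**Figure D4:**
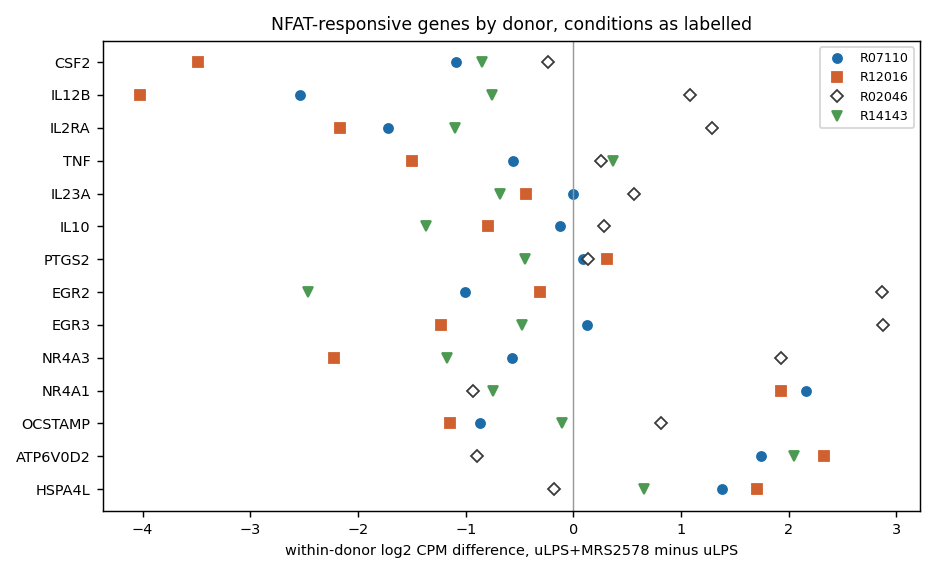
Within-donor difference of log2 CPM, uLPS+MRS2578 minus uLPS (horizontal axis), for the 11 tested NFAT-responsive immune genes and for OCSTAMP, ATP6V0D2 and HSPA4L, with a symbol for each donor (open for R02046), conditions as labelled. For IL12B, IL2RA, IL10, IL23A, NR4A3, EGR2, OCSTAMP, ATP6V0D2 and HSPA4L, the R02046 difference has the opposite sign to those of the other 3 donors. CSF2 is lower with MRS2578 in every donor, and for TNF, PTGS2, EGR3 and NR4A1 the other 3 donors differ in sign. Some signs rest on differences near 0, such as -0.0083 for IL23A in R07110. Others rest on low levels, such as IL10 at 0.112 to 1.72 CPM.

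NFATC1 directs the genes of osteoclast formation, of which 8 of 9 were in the files and 7 were tested, with a median of -0.14. ATP6V0D2, a proton pump subunit, was at 2.83, 1.21, 6.08 and 0.610 CPM with uLPS and at 9.75, 6.51, 3.22 and 2.85 CPM with MRS2578. It was higher with MRS2578 in 3 donors and lower in R02046. As labelled, its value in edgeR was 1.33 on the log2 scale (SE 0.54, adjusted p = 0.878), against 2.05 (SE 0.25, adjusted p = 0.124) without R02046, and 1.76 (SE 0.27, adjusted p = 0.0427) with R02046 exchanged, where it passed. DCSTAMP was at 0.21 and OCSTAMP and OSCAR at -0.50 and -0.35. Of the osmotic targets of NFAT5, 4 were tested, with a median of 0.06. HSPA4L, a heat shock protein, was at 0.90 (SE 0.30, adjusted p = 0.878), the taurine transporter SLC6A6 at 0.13, aldose reductase AKR1B1 at -0.13 and SLC38A2 at -0.01. In the 6 lists other than the immune genes, medians ran from -0.24 to 0.01 with R02046 exchanged. Without R02046 they ran from -0.26 to 0.04. The 1 gene called in these lists was ATP6V0D2, with the exchange, where 0.618% of all genes passed. With R02046 exchanged, neither IL2RA nor ATP6V0D2 passed without R07110 (adjusted p = 0.251 and 0.316) or without the donor block (0.646 for IL2RA and higher for ATP6V0D2), and ATP6V0D2 did not pass without R12016 (0.147) or in edgeR's earlier quasi-likelihood estimation (0.0592).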

How the data were processed

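RNA libraries from cultured macaque microglia were made with a directional kit, and the authors deposited raw counts of reads per gene, 1 table per library, on Mmul_10. The study's methods name fastp, STAR and HTSeq, while the submitters' processing notes list Trimmomatic 0.30, TopHat2 2.0.14, SAMtools 1.3 and HTSeq 0.6.1p1. Which set made the counts, the strand setting and the annotation release were not given in the sources used here, so overlapping genes may share reads.

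Counts were analysed in R 4.3.3 with edgeR 4.0.16. Genes passed filterByExpr (minimum count 10), libraries were scaled by TMM, and a model with donor and condition was tested by the quasi-likelihood F-test with Benjamini-Hochberg adjustment over all tested genes at 0.05. SE is the value implied by the test statistic. The newer of edgeR's quasi-likelihood estimations was kept after both had been seen. TMM factors also enter the CPM, and a prior count of 2 enters log2 CPM. Alternatives used DESeq2 1.42.0 size factors and tests, the likelihood ratio test, no filter, no donor block, and each donor left out. Ratios of 2 counts have exact conditional 95% intervals.

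The donor was a block because both libraries of a donor come from 1 animal. Across genes, the deviations of these libraries from their condition means had correlations of 0.602, 0.552, 0.458 and 0.562. No libraries were duplicates, since the smallest chi-square per degree of freedom between 2 libraries was 19.7. The median total was 17146885.5 counts. Each animal gave 1 culture per condition, and the labels name no vehicle control and no batch. The scripts were tested on simulated data.

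Named genes are every member, the called genes of each list, and the 2 largest and 2 smallest log2 fold changes of each list. COL1A1, COL1A2 and other markers were described only. Members, lists and sequence windows were chosen with earlier results of these data known. Positions, exon lengths and sequences come from the NCBI annotation and genome of Mmul_10, and 11503 genes of the files carry no symbol. 1 gene that the likeness rule names is not reported here.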

Additional observations from a re-analysis of the deposited data

Results flagged for a closer look

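In 41 sets of 4 libraries or donors, the sample at one end was tested for standing far from the rest by Dixon's criterion at the 95% level, which chance meets in about 1 set in 20, and 4 sets met it. The within-donor difference of NFATC3 in R07110, 0.0205 on the log2 scale, lay below those of the other 3 donors, 0.24 to 0.28. The share of NFATC1 among the NFAT factors in the R02046 library labelled uLPS was 43.2%, above 26.8% to 28.7% in the other libraries with uLPS. The share of NFATC2 in R14143 with uLPS was 0.0743%, from 1 count, and the share of NFATC3 in R12016 with MRS2578 was 41.0%, below 50.3% to 51.3% in the others.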

How the results depend on the processing

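No tested member passed for MRS2578 in 22 fits, of which NFATC2 entered 4. The count over all genes, 0 in the analysis as labelled, was 1 in DESeq2's Wald test, 5 in edgeR's likelihood ratio test and 0 without the donor block. With R02046 exchanged it was 75, and with that exchange 616 in the likelihood ratio test, 39 and 46 in edgeR's earlier estimation without and with a robust prior, 86 without the filter, and 0 to 918 with another donor left out (5 without R12016, 918 without R14143). It was 1 without both R02046 and the filter. The donor count, 892, was 2468 in DESeq2, 2288 with the exchange and 333 to 909 with a donor left out, and 1 member was called in DESeq2 and with the exchange. The cause of these changes was not tested.

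Of 171 refits of single members, 156 kept their direction. With a donor left out, NFATC1 ran from -0.064 (without R12016) to 0.222 as labelled, and CABIN1 from -0.136 to 0.029 (without R12016), or -0.154 to 0.012 (without R12016) with the exchange. NFAT5 turned to -0.0095 without the replicate block, and ran from -0.142 to 0.271 with a donor left out, being -0.14 without R02046 and -0.16 without R02046 and the filter. With the exchange it was -0.29, and then -0.31 in the likelihood ratio test, -0.30 in both earlier estimations and without the filter, -0.19 without the block, and -0.39 to -0.26 with another donor left out. Among shares, 46 of 49 kept their direction, and NFATC1 turned to 3.98 points with the exchange and ran from -3.79 to 1.504 (without R02046) with a donor left out, and NFATC3 to -0.17 with the exchange. Other scalings of CPM and another prior count moved no level or difference by more than its SD. Apart from NFAT5, the replicate block changed no member's direction. At 1 to 66 counts, depth limits NFATC2.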
